A study of Mus musculus with 12 samples.

Results

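The kinetochore, centromere and spindle checkpoint genes were taken from a list of 40 symbols, fixed with earlier results of these data known. Each symbol was found once among the 54532 genes of the table. By role, 12 encode the centromere nucleosome and the constitutive centromere network, 16 the outer kinetochore, 7 the spindle checkpoint, and 5 the chromosomal passenger complex and the guardians of centromeric cohesion. The RNA came from MC38, a line of mouse colorectal cancer cells. Each of 4 groups had 3 cultures: a control without drug or radiation, 3 µM nintedanib, 8 Gy of X-rays, and 3 µM nintedanib with 8 Gy of X-rays (the combination). Nintedanib inhibits the receptor tyrosine kinases of the VEGF, FGF and PDGF families. Treated cultures were taken at 24 hours, no time is labelled for the controls, and the labels describe 3 independent repeats of the experiment. All groups are of a single cell line, with no other alleles or agents labelled.

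The kinetochore is the protein platform on which a chromosome is held by spindle microtubules. At its base, nucleosomes with the histone H3 variant CENP-A mark the centromere, and the constitutive centromere network (the CENP-C, H, I, K, L, M, N, O, P, Q, T and W proteins and partners) binds them through the cell cycle. In mitosis the outer kinetochore assembles on that base: the Mis12 complex and Knl1 join the Ndc80 complex, which grips microtubules, and the Ska complex and the motor CENP-E strengthen the grip. Kinetochores without microtubules recruit Bub and Mad proteins and the kinase Ttk, the spindle checkpoint, which delays anaphase. The chromosomal passenger complex corrects wrong attachments, and the shugoshins protect the cohesin that holds sister centromeres together. Many of these genes are transcribed mainly in late S, G2 and mitosis. DREAM and MuvB complexes act on such promoters through a short CHR element, often near CCAAT boxes bound by NF-Y.

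The promoters of 5 members are shown because they carry different sets of these letters and because the genes moved differently. They are RefSeq windows of 300 bases on GRCm38.p6, from 250 bases before to 50 after the transcript start, written in the direction of the gene. Capitals mark the CHR letters TTTGAA or TTTAAA and the CCAAT box, each searched on both strands, so that TTCAAA and ATTGG are the same letters on the other strand. The first 3 belong to genes that rose after radiation. They are the kinetochore protein gene Cenpf (chr1:189688037-189688336, minus strand), the checkpoint kinase-like gene Bub1b (chr2:118597961-118598260, plus strand) and the checkpoint kinase gene Ttk (chr9:83834439-83834738, plus strand). Knstrn, a spindle and kinetochore protein gene with the largest rise of the 40, had neither element in its window (chr2:118813753-118814052, plus strand). Zwint, whose protein binds Knl1, had both elements (chr10:72654596-72654895, plus strand) and was not called after radiation alone.
Cenpf: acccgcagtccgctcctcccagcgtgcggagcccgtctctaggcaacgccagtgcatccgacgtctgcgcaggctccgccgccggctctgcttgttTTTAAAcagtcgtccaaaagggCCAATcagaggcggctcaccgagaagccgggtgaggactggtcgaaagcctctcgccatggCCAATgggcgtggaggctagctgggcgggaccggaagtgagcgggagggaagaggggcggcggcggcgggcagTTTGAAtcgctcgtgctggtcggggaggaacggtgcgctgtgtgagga
Bub1b: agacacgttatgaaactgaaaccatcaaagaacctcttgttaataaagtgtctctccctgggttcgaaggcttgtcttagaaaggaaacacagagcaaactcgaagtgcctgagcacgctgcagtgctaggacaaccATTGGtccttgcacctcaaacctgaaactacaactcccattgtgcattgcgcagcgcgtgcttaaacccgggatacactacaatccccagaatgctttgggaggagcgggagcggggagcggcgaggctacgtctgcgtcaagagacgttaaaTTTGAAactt
Ttk: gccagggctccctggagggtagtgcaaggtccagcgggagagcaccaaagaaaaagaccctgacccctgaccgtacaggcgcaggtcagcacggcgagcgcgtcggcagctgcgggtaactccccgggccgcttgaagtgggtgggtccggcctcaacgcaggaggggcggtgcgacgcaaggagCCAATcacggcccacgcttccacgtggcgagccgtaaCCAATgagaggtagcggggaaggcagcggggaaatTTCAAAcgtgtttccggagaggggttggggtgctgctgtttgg
Knstrn: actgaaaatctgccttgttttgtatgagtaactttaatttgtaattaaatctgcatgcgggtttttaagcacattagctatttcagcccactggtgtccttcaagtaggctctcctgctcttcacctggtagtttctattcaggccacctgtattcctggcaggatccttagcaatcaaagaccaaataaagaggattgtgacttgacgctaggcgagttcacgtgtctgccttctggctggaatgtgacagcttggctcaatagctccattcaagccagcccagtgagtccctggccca
Zwint: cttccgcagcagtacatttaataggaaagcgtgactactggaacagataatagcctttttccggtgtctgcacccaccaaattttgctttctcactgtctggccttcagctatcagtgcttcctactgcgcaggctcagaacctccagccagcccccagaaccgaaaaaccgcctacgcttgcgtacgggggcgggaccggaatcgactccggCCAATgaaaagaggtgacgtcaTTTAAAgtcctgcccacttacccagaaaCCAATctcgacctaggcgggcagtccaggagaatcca

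Counting from the start as base 1, the CHR letters of Cenpf began at 3 and at -154, those of Bub1b at 41, those of Ttk at 8 and those of Zwint at -15. Cenpf had CCAAT at -132 and -71, Ttk at -65 and -28, Zwint at -37 and 14, and Bub1b at -113. Windows were found for 35 of the 40 members. The CHR letters stood in 18 of those 35 genes (51.4%), against 30.6% of the 27025 genes with a window. CCAAT stood in 23 (65.7%, against 41.1%), at least 2 CCAAT boxes in 14 (40%, against 13.3%), and CHR together with CCAAT in 13 (37.1%, against 12.2%). The E2F letters TTTCGCGC or TTTGGCGC were in 1 member, Cenpl (2.9%, against 0.9%). Of the 23 members with a window that rose after radiation, 56.5% had CHR and 69.6% CCAAT, and of the 12 not called there 41.7% and 58.3%. The 27025 genes were not limited to those expressed in these cells, as the members are, so they are not a like background. These shares are descriptions, and a match is not a bound site.

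Libraries held 16103528 to 18196615 fragments, and each member was covered by 86 to 10761 of them per library. All 40 members passed the expression filter of at least 1 FPKM (fragments relative to the length of the gene and the depth of the library) in at least 3 libraries. The cultures had the mesenchymal gene Vim at 498 to 618 FPKM, while no library had a value above 0 for the epithelial gene Epcam despite the colorectal label. Other mesenchymal markers were low, with Cdh2 at 3.51 to 5.02 FPKM and Col1a1 at 1.73 to 2.84. The 6 mesenchymal markers summed to 1336 to 1456 FPKM in controls, and the endothelial markers to at most 2.71 in any library. The epithelial markers summed to 4.92 to 5.82 FPKM in controls and 11.3 to 13.7 in the combination, with Cdh1 at 4.12 to 8.73 over the 12 libraries, and the leukocyte markers to at most 0.265. The part of these shifts in the results was not tested. In controls, members ranged from 2.07 ± 0.330 FPKM for Cenpo (SD, n = 3) to 52.2 ± 2.62 for Incenp, around a median of 11.9. The levels of Bub1b (34.2 ± 0.783), Birc5 (27.9 ± 1.07), Bub1 (25.2 ± 1.88) and Cdca8 (24.9 ± 1.58) came next, and Bub1 and Cdca8 differed by less than their SDs. The median control level was 9.59 FPKM for the centromere network, 11.8 for the outer kinetochore, 15.8 for the checkpoint and 24.9 for the passenger and cohesion genes.

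**Figure D1:**
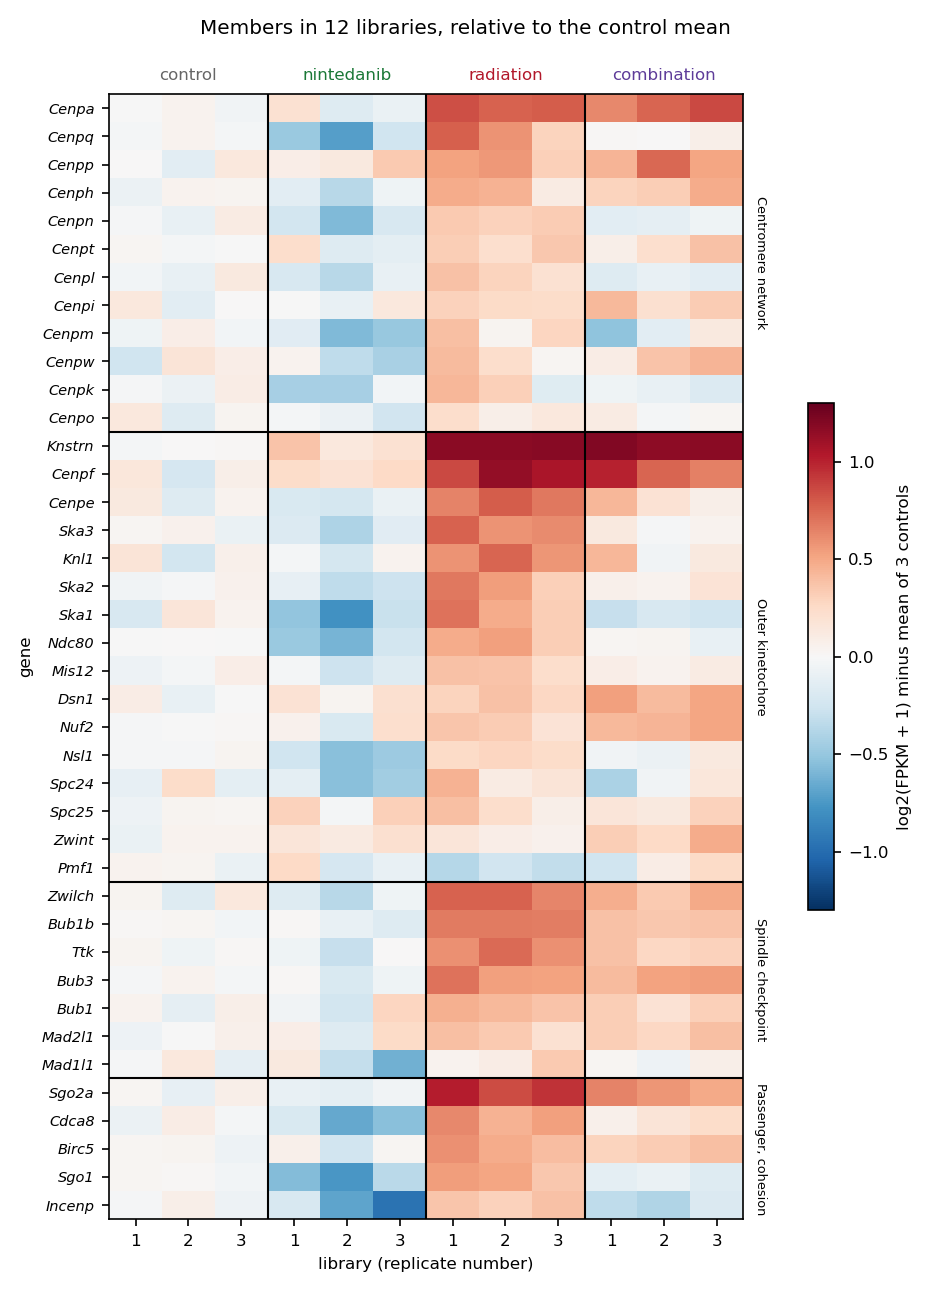
Level of each member (rows, by role) in each of the 12 libraries (columns, by group), as log2(FPKM + 1) minus the mean of the 3 controls. Radiation libraries are above the control mean in 39 of 40 members on average, and Sgo1, Ndc80 and Incenp are below it with nintedanib.

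After radiation alone 26 of the 40 members rose and none fell. The background was 8.04% of all 13012 genes tested called higher and 9.9% called lower (limma, adjusted p under 0.05). The members' median log2 fold change was 0.38, against -0.04 over all genes, and 39 of 40 changes were positive. At an unadjusted p under 0.05, 32 members were higher and 1, Pmf1, was lower. The share of all genes at that threshold was not counted, here or in the other comparisons. Together the members took 0.271, 0.258 and 0.269% of the fragments in the controls and 0.425, 0.430 and 0.406% after radiation, with no overlap. With values rescaled to a common sum, 69.8% of all called genes were higher in place of 44.8%, and 30 members were higher and 0 lower. RNA from whole cultures cannot tell a larger share of cells in G2 or mitosis from more of each transcript per cell. The count was 16 without the second radiation library, 30 without the third library of the nintedanib group.

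**Figure D2:**
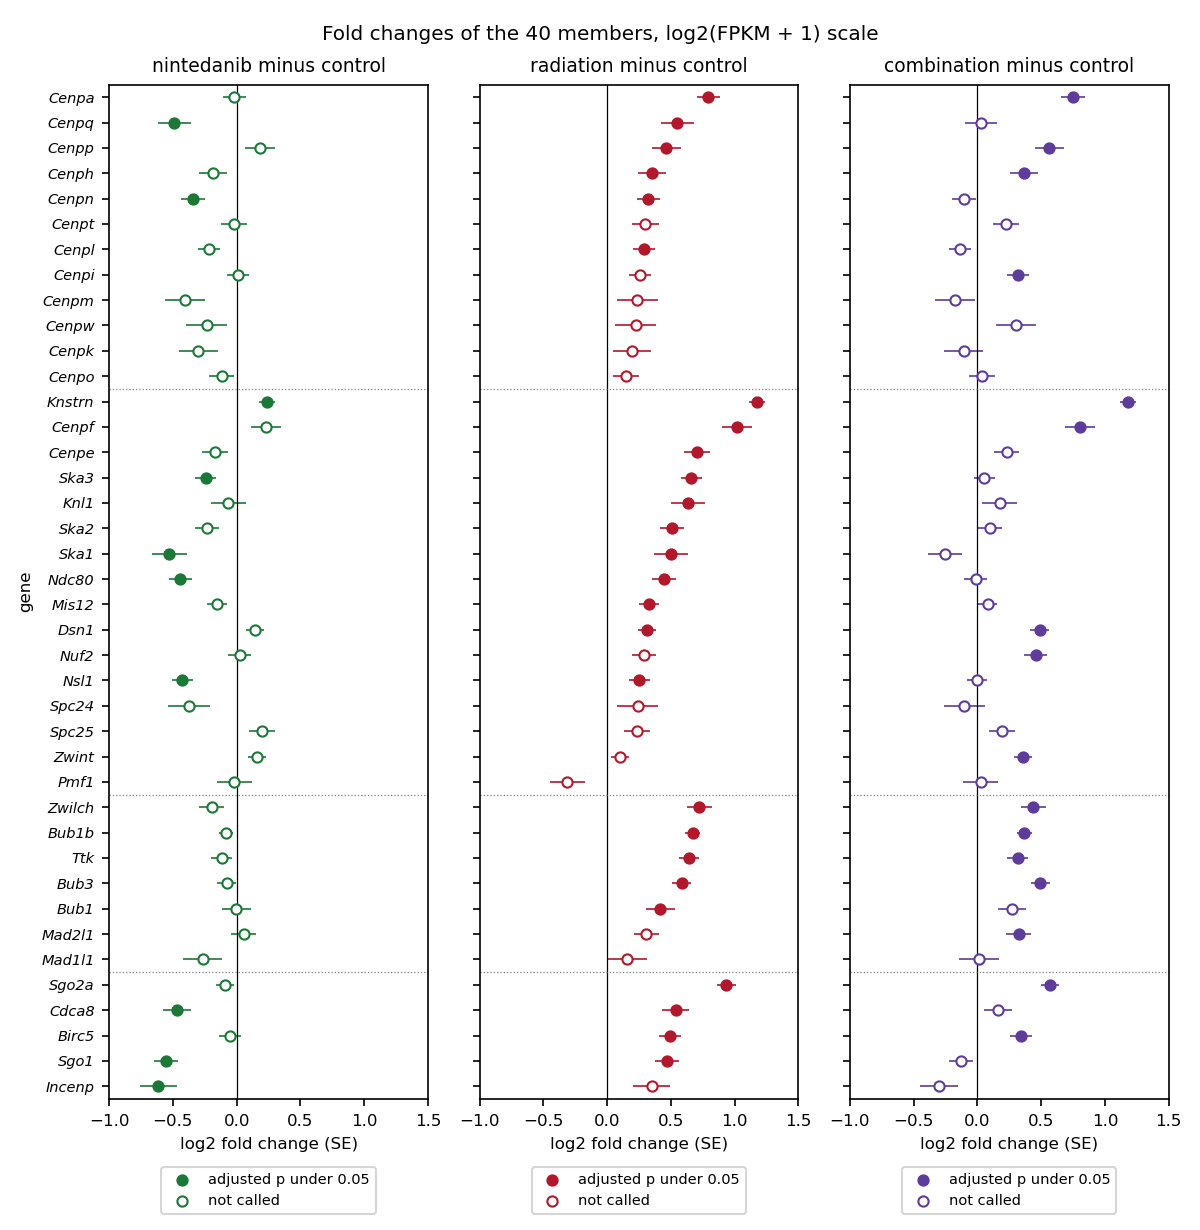
Log2 fold change of each member (points) with its standard error (bars) in the 3 comparisons with control, which share the 3 control libraries; filled points have an adjusted p under 0.05. All 26 filled points after radiation and all 16 in the combination are to the right of 0, while 9 of the 10 with nintedanib are to the left.

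Knstrn, whose protein works at kinetochores and spindle poles (ENSMUSG00000027331, chromosome 2, 118814003 to 118853957, plus strand), had the largest rise. It stood at 17.9, 18.3 and 18.4 FPKM in controls and at 42.3, 42.4 and 42.5 after radiation. The groups were far apart and each was tight. The log2 fold change was 1.18 (SE 0.063, adjusted p = 1.25e-05 by limma), rank 31 from the highest of 13012 genes. Cultures with nintedanib had 23.8, 20.2 and 21 FPKM, a rise of 0.24 (adjusted p = 0.0113) that missed the threshold with only the libraries of these groups in the fit (adjusted p = 0.0531). The combination had 43.3, 42.1 and 42.2 FPKM, level with radiation alone (difference 0.00, adjusted p = 0.982). An antisense gene, Gm14091, overlaps Knstrn over 4249 bases and had group means of 2.42, 2.86, 5.95 and 5.19 FPKM in control, nintedanib, radiation and combination. Whether strand was used in counting is not given, so their reads may not be separable.

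In the centromere network, 6 of 12 genes rose after radiation, with a median of 0.29, and the 12 changes were positive. Cenpa, the centromeric histone itself (chromosome 5, 30666777 to 30674830), was at 17.7, 18.4 and 17.2 FPKM in controls, 20.6, 15.7 and 16.6 with nintedanib, 32.4, 31 and 31.2 after radiation and 28, 30.7 and 32.9 in the combination. Both irradiated groups lay above both unirradiated ones, whether or not the drug was present. The changes were 0.80 after radiation (SE 0.093, adjusted p = 0.000391), 0.75 in the combination (6.54e-05) and -0.02 with nintedanib (0.901). Cenpq, which with Cenpo and Cenpp belongs to the network's outermost module, rose by 0.55 (adjusted p = 0.0139), Cenpp by 0.46 (0.0187), and Cenph by 0.35 (0.0479). Cenpn and Cenpl, partners that contact the CENP-A nucleosome, rose by 0.32 (0.0345) and 0.29 (0.0379). Cenpt, which also recruits the Ndc80 complex, changed by 0.30 (0.071), and Cenpi, Cenpm, Cenpw, Cenpk and Cenpo by 0.15 to 0.26 without a call. Apart from Cenpa these calls were narrow. Without the second radiation library Cenpa alone of the 12 was called, and the other 5 reached adjusted p-values of up to 0.163 (Cenph), 0.131 (Cenpl), 0.118 (Cenpn), 0.0762 (Cenpp) and 0.0528 (Cenpq). Leaving out the first radiation library or the second control also lost Cenph, Cenpl, Cenpn and Cenpp. The first control lost Cenph, Cenpl and Cenpn, the third control Cenph, and the third radiation library Cenpn. In all, the call of Cenph was lost in 12 of 22 settings.

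The outer kinetochore gave 11 rises among 16 genes, with a median of 0.39. Cenpf, a large protein of the outer plate and nuclear matrix (chromosome 1, 189640606 to 189688086, minus strand), was at 18.2, 13.9 and 17.4 FPKM in controls and 30.5, 37.3 and 35.3 after radiation, with no overlap (1.02, SE 0.114, adjusted p = 0.000311). Cenpe, the kinesin that carries chromosomes along microtubules, had 24.7, 20 and 23.3 FPKM in controls and 35.8, 39.8 and 37 after radiation (0.71, adjusted p = 0.00131). The 3 Ska genes, whose products form 1 complex that couples kinetochores to shrinking microtubule ends, rose together. Ska3 (chromosome 14, 57806561 to 57826185, minus strand) went from 10.5, 10.7 and 9.61 to 18.2, 16 and 16.3 FPKM (0.66, SE 0.082, adjusted p = 0.000579). Ska2 rose by 0.51 (0.00499) and Ska1 by 0.50 (0.027). Knl1, the scaffold for the Bub kinases, rose by 0.64 (0.00959), and Ndc80, the microtubule-binding subunit of its complex, by 0.45 (0.00784). Of its partners, Nuf2 changed by 0.29 (0.0526), Spc24 by 0.24 (0.342) and Spc25 by 0.23 (0.145). In the Mis12 complex, Mis12 (0.33, 0.0134), Dsn1 (0.31, 0.0145) and Nsl1 (0.25, 0.0478) rose. Pmf1, its remaining subunit, went the other way, at 11.5, 11.5 and 10.5 FPKM in controls and 8.40, 9.22 and 8.72 after radiation (-0.31, adjusted p = 0.139). The call of Nsl1 was lost in 12 of 22 alternative settings, including on leaving out any 1 of the control or radiation libraries (adjusted p of up to 0.137). Those of Ska1 (up to 0.0923), Dsn1 (0.065) and Mis12 (0.057) were lost without the second radiation library. Ska1 was also lost without the first or the third control or the first radiation library, Dsn1 without the second or the third control, and Mis12 without the first control.

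Of the 7 checkpoint genes 5 rose after radiation (8.04% of all genes were called higher), and their median of 0.59 was the highest of the 4 role groups. Their changes ran from 0.16 to 0.72, and the role groups were not tested against each other. A list of 20 other G2/M genes, given below, had a higher median, of 0.82. Bub1b, which encodes BubR1, a part of the complex that blocks anaphase (chromosome 2, 118598211 to 118641591, plus strand), was at 34.6, 34.8 and 33.3 FPKM in controls and 55.2, 55.3 and 54.8 after radiation (0.67, SE 0.059, adjusted p = 9.21e-05). Ttk, the kinase that starts checkpoint signalling, went from 8.18, 7.59 and 8.03 to 12.5, 13.8 and 12.5 FPKM (0.64, adjusted p = 0.000584). Bub3, the adaptor that docks Bub1 and BubR1 on Knl1, rose by 0.59 (0.000655). Zwilch, of the RZZ complex that brings checkpoint proteins and dynein to kinetochores, rose by 0.72 (0.000868). Bub1, at 26, 23.1 and 26.6 FPKM in controls and 35, 34.2 and 32.9 after radiation, rose by 0.42 (0.0272). Its groups did not overlap, but its call was lost on leaving out any 1 of the control or radiation libraries (adjusted p of up to 0.0981). The anaphase inhibitor Mad2l1 changed by 0.31 (0.0506), at 8.56, 8.98 and 9.52 against 12.1, 11.6 and 10.5 FPKM, and its partner Mad1l1 by 0.16 (0.523). Thus the Bub genes and Ttk passed the test, and the Mad genes did not. Whether they differ was not tested.

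Among passenger and cohesion genes, 4 of 5 rose after radiation, with a median of 0.49. Sgo2a, a shugoshin (chromosome 1, 57995971 to 58025899, plus strand), was at 3.83, 3.42 and 4.02 FPKM in controls and 8.66, 7.54 and 8.10 after radiation (0.94, SE 0.072, adjusted p = 5.86e-05), and its relative Sgo1 rose by 0.47 (0.00737). Cdca8, which encodes borealin, rose by 0.54 (0.00764), and Birc5, which encodes survivin, by 0.49 (0.00372). Both proteins bring the passenger complex to centromeres. Incenp, the scaffold of that complex, had 51.6, 55.1 and 49.9 FPKM in controls and 67.5, 64.6 and 68.3 after radiation. These ranges did not overlap, but the change of 0.35 was not called (adjusted p = 0.127). The fit shares 1 spread over the 4 groups, and the SD of Incenp was 9.61 FPKM with nintedanib and 1.94 to 3.29 in the others.

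Other genes of the same biology were counted from lists drawn up by known role, with earlier results of these data already known. Over all genes, 8.04% were called higher after radiation and 9.9% lower. Of 29 other centromere and kinetochore genes, 15 rose after radiation and none fell, with a median of 0.37, close to that of the members. Only 21 of these 29 changes were positive, against 39 of 40 in the members, and the lowest was -0.37. Smallest adjusted p-values went to Kif2c (0.81, 9.21e-05), a kinesin that removes wrong attachments, Spag5 (0.64, 0.00013), which encodes a partner of the Knstrn protein, and the kinesin Kif18a (0.73, 0.000503). Nde1 (0.54) and Kntc1 (0.59), both of the dynein-recruiting arm, Cdc20 (0.74), the anaphase activator that the checkpoint holds back, and Hjurp (0.57) and Oip5 (0.52), which load CENP-A, followed. Of 20 other G2/M genes 19 rose, with a median of 0.82, among them Ccnb2 (1.17), Kif20a (1.18) and Nusap1 (1.14). Of 20 DNA replication genes 3 rose (Gins3 by 0.46, Cdc45 by 0.35 and Mcm3 by 0.50), with a median of 0.25. Over the alternative settings that last count ran from 0 to 12 (at 11 of them higher at most), and the G2/M count from 18 to 20.

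With nintedanib alone 9 members fell and 1, Knstrn, rose. The background was 22% of all genes lower and 19.7% higher, so a fall in 9 of 40 was near it. The members' median was -0.14, against -0.02 over all genes. By role these were 3 of 5 passenger and cohesion genes, 4 of 16 outer kinetochore genes, 2 of 12 centromere genes and none of 7 checkpoint genes, and the role groups were not tested against each other. At an unadjusted p under 0.05 (all genes not counted), 13 members were lower and 2 higher. The third nintedanib library had the highest mitochondrial share (2.12%) of the 12. Without it 11 members fell and 1 rose, and over all libraries left out in turn 9 to 15 members were called. With values rescaled to a common sum, 60% of all called genes were higher in place of 47.2%, and 7 members fell and 2 rose.

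Sgo1 (chromosome 17, 53674786 to 53689333, minus strand) had the smallest adjusted p of these falls. It was at 20.5, 20.3 and 19.6 FPKM in controls and 13.2, 11.5 and 15.6 with nintedanib, with no overlap (-0.56, adjusted p = 0.000677). Incenp was at 45.2, 32.2 and 26.4 FPKM with the drug, all below the lowest control of 49.9 but spread widely (-0.61, adjusted p = 0.00614). Cdca8 had 23.6, 26.7 and 24.4 FPKM in controls and 21.6, 15.3 and 16.8 with the drug (-0.47, adjusted p = 0.0051). A gene on the opposite strand, 9930104L06Rik, overlaps Cdca8 over 2264 bases and had means of 7.09 FPKM in controls and 4.48 with the drug, and its part in the fall was not tested. Survivin's gene Birc5 changed by only -0.05 (0.652) and Sgo2a by -0.09 (0.345), so that within each complex or family some genes passed the test and others did not.

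Among kinetochore subunits, Ska1 fell by 0.53 (adjusted p = 0.00871), Cenpq by 0.49 (0.00941), Ndc80 by 0.44 (0.00251), Nsl1 by 0.43 (0.00134), Cenpn by 0.34 (0.0118) and Ska3 by 0.24 (0.035) with nintedanib. The call of Ska3 was lost in 7 of 22 alternative settings, including without the first or second control or the second nintedanib library (adjusted p of up to 0.241), and that of Cenpn in 3, including without the third control (up to 0.0803). Ndc80 and Nuf2, which pair along 1 coiled coil, behaved differently in level. Ndc80 was at 11.4, 11.6 and 11.5 FPKM in controls and 7.97, 7.22 and 9.58 with the drug, while Nuf2 was at 10, 10.2 and 10.3 and then 10.6, 8.76 and 12 (0.02, adjusted p = 0.867). The ratio of Ndc80 to Nuf2 was 1.14, 1.14 and 1.11 in controls, 0.752, 0.824 and 0.800 with nintedanib, 1.23, 1.31 and 1.25 after radiation and 0.837, 0.834 and 0.713 in the combination. Every library with the drug was below 1 and every library without it above 1. The ratio was chosen after its values were seen and is a description, with no test.

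**Figure D3:**
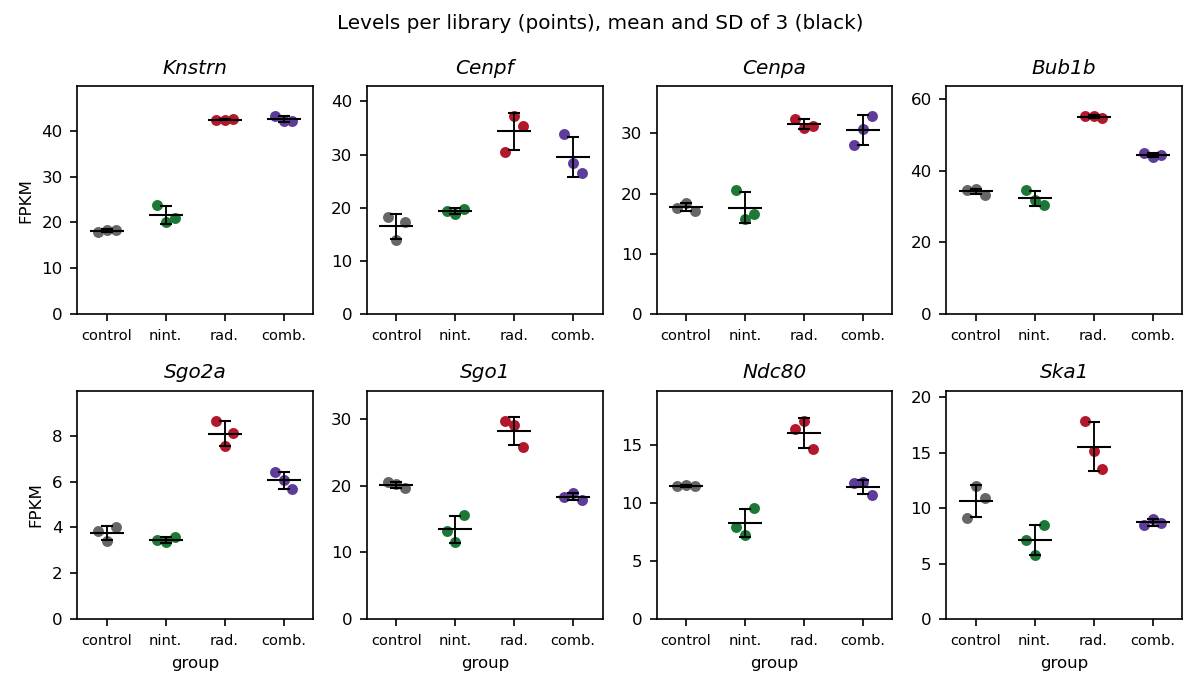
FPKM of 8 members in every library (points), with the mean and SD of 3 (black), in control, nintedanib (nint.), radiation (rad.) and combination (comb.). Knstrn, Cenpf and Cenpa stay high in the combination, Bub1b and Sgo2a lie between control and radiation, and Ndc80 overlaps the control level while Sgo1 and Ska1 lie below it.

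In the combination 16 members were higher than control and none lower, against a background of 22.3% higher and 25% lower over all genes. The median was 0.21 (all genes -0.03), and at an unadjusted p under 0.05 the counts were 18 and 0 (all genes not counted). Grouped by which calls passed the threshold, which is no test of a difference between treatments, 12 members were higher than control both after radiation alone and in the combination: Cenpa, Cenph, Cenpp, Dsn1, Knstrn, Cenpf, Bub1b, Bub3, Ttk, Zwilch, Birc5 and Sgo2a. Another 14 were higher after radiation but not called in the combination. Joint calls were not counted over all genes, so these counts have no background. Incenp, also lowered by the drug alone, was not called after radiation. Of the 14, 8 were among the 9 members that the drug alone lowered: Cenpn, Cenpq, Ndc80, Nsl1, Ska1, Ska3, Cdca8 and Sgo1. In 6 of those 8 the combination libraries overlapped the controls, as for Ndc80 at 11.7, 11.8 and 10.7 FPKM (-0.01, adjusted p = 0.912). In Sgo1, at 18.3, 18.9 and 17.8 FPKM (-0.13, 0.299), and Ska1, at 8.44, 9.01 and 8.70 (-0.26, 0.144), all 3 lay below the lowest control, of 19.6 and 9.07 FPKM, without a call.

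The remaining 4 of the 16, Cenpi, Nuf2, Zwint and Mad2l1, were higher in the combination and not called after radiation. Of these, Zwint alone was called when the combination was set directly against radiation. Zwint was at 17.6, 19.4 and 19.5 FPKM in controls, 21, 20 and 19.7 after radiation and 23.7, 22.8 and 26.7 in the combination (0.36, adjusted p = 0.00161). Nuf2 stood at 14.0, 14.2 and 15 FPKM in the combination (0.46, 0.00192). Of the checkpoint genes 5 of 7 were called. Mad2l1 (0.32, 0.0174) was among them and Bub1 (0.27, 0.0692) was not, with changes close to those after radiation for Mad2l1 and no call for either between the combination and radiation. The calls of Mad2l1 and Cenph were lost without the first control or the third combination library (adjusted p of up to 0.0619 and 0.0668). Comparisons with control share the 3 control libraries, so these sets are not independent observations. The 9 members called against control under no treatment were Cenpk, Cenpm, Cenpo, Cenpt, Cenpw, Spc24, Spc25, Pmf1 and Mad1l1.

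Set directly against radiation alone, the combination was lower in 18 members and higher in 1, Zwint (0.26, adjusted p = 0.0154). The background was 17.3% of all genes lower and 17.2% higher, and the members' median was -0.25 (all genes -0.01). Incenp was at 41.3, 39.4 and 45.8 FPKM against 67.5, 64.6 and 68.3 (-0.65, adjusted p = 0.00555). Sgo1 differed by -0.59 (0.00063), and Sgo2a by -0.37 (0.00258). The Ska genes were lower throughout, Ska1 by -0.76 (0.00133), Ska3 by -0.60 (0.000244) and Ska2 by -0.41 (0.00607). Bub1b was at 44.8, 43.9 and 44.5 FPKM, between control and radiation alone and apart from both (-0.31, 0.00212). Of the 18, 9 had also fallen with the drug in unirradiated cells. The other 9 were Cenpl, Mis12, Knl1, Ska2, Cenpe, Bub1b, Ttk, Zwilch and Sgo2a. Such shared calls were not counted over all genes. Knstrn, Cenpa (-0.05, 0.729) and Bub3 (-0.09, 0.372) were not called, with 95% intervals of the difference that spanned 0. Calls of Knl1 and Mis12 were lost without the second library of either group, Zwint without the third library of either, and Cdca8 without the first of either (adjusted p of up to 0.087, 0.0844, 0.07 and 0.0697). Nsl1 (up to 0.1) and Zwilch (up to 0.137) were lost in 6 and 8 settings, most of them with 1 library of these groups left out.

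Adding radiation to nintedanib raised 18 members and lowered none, against 3.17% of all genes higher and 2.37% lower. This comparison shares no library with radiation against control. At an unadjusted p under 0.05 the counts were 29 and 0 (all genes not counted), and the median was 0.34 (all genes -0.01). Knstrn rose by 0.94 (adjusted p = 7.45e-05), Cenpa by 0.76 (0.00158), Sgo2a by 0.66 (0.000937), Zwilch and Cdca8 by 0.63 (0.00491 and 0.00937) and Cenpf and Bub3 by 0.57 (0.017 and 0.00245). Of the 26 members that radiation raised without the drug, 17 were also called with it. A further member, Nuf2, was called with the drug only. The same sharing was not counted over all genes. The count fell to 9 without the second nintedanib library, to 10 without the second combination library, to 9 with values rescaled to a common sum and to 4 with the libraries of these groups alone. The calls of Knstrn, Cenpa, Sgo2a and Bub3 held under all of these. Across the 40 members the radiation effects without and with the drug had a Pearson r of 0.759 (all genes 0.397). The signed log2 fold change was lower with the drug in 28 of 40 members, against 48.1% of all genes. A stronger fall also counts as lower here, so the 48.1% is not a share of weaker effects. Members share libraries and are not independent replicates, so this is a description.

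**Figure D4:**
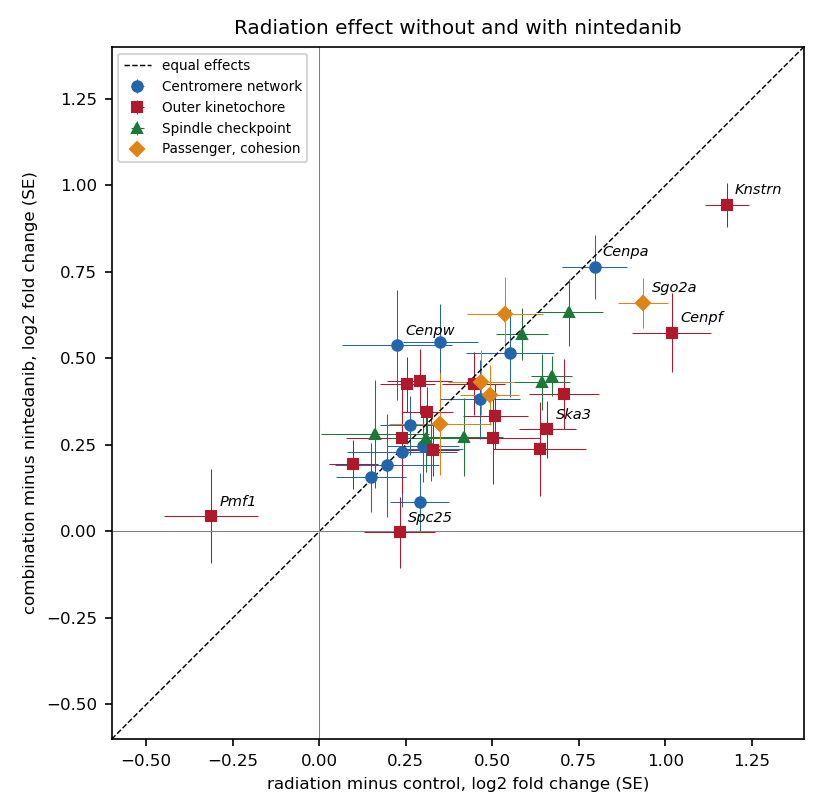
Radiation effect on each member without nintedanib (x axis, radiation minus control) and with it (y axis, combination minus nintedanib), as log2 fold changes with standard errors. In 28 of 40 members the point is below the dashed line of equal effects, and Spc25 is at 0.23 without and close to 0 with the drug.

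The interaction asks whether the drug's effect differed between irradiated and unirradiated cells. No member was called, and 0.00769% of all genes were called higher and 0% lower (limma). At an unadjusted p under 0.05 (all genes not counted), 5 members were lower and 0 higher. They were Cenpf (-0.44), Ska3 (-0.36), Sgo2a (-0.28), Knstrn (-0.23) and Bub1b (-0.22). Their smallest adjusted p was 0.278, and none was called under the alternative settings, the count-based fit included. A difference in the effect of radiation with and without the drug was therefore not shown for any member.

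Genes of the same assembly or family kept or changed their proportions, here again as descriptions chosen after their values were seen. The ratio of Incenp to Birc5 was 1.82, 1.92 and 1.88 in controls, 1.55, 1.39 and 0.932 with nintedanib, 1.59, 1.65 and 1.84 after radiation and 1.20, 1.12 and 1.25 in the combination. Sgo1 was 5.36, 5.93 and 4.87 times the level of Sgo2a in controls, 3.85, 3.44 and 4.33 times with nintedanib, 3.44, 3.87 and 3.19 times after radiation and 2.85, 3.12 and 3.13 times in the combination. By contrast, the ratio of Cenpl to Cenpn stayed between 0.434 and 0.543 in all 12 libraries. The other ratios computed are given as means in control, nintedanib, radiation and combination. Spc24 to Spc25 had 1.39, 0.9, 1.38 and 1.11, and Cdca8 to Birc5 0.895, 0.664, 0.925 and 0.786. Ska1 to Ska2 had 0.883, 0.705, 0.877 and 0.673, and Ska3 to Ska2 0.855, 0.848, 0.959 and 0.827. Cenph to Cenpk had 4.01, 4.66, 4.41 and 5.81. For the Ska and Cenph ratios the control and nintedanib libraries overlapped. Of the members, 14 are overlapped by another gene that reached 1 FPKM, on the opposite strand for 12 of them. Beside Knstrn and Cdca8, Zwilch overlaps Lctl, whose means were 1.57, 7.43, 2.47 and 5.07 FPKM in control, nintedanib, radiation and combination. Cenpq overlaps Mut (15.3, 18.7, 15.6 and 14.6 FPKM) and Sgo2a overlaps Kctd18 (1.74, 1.91, 1.82 and 1.58 FPKM). The part of such reads in these values was not tested.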

How the data were processed

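The deposited table gives FPKM values per gene for each library, with gene model coordinates and lengths, per the file headers. The build was GRCm38, as the submitters' processing notes state. No source used here gives the aligner, the counting tool or whether strand was used. Differences were tested on log2(FPKM + 1) with limma 3.58.1 in R 4.3.3 (two-sided empirical Bayes, intensity trend). All 12 libraries entered 1 fit, and genes had at least 1 FPKM in at least 3 libraries. Benjamini-Hochberg adjustment ran over 13012 genes within each of the 6 comparisons, with calls at 0.05. Fold changes on this scale understate those of low genes. Fragment numbers were recovered from the FPKM steps (100% of nonzero values whole within 0.01). The depth implied by those steps was 0.970 to 0.982 times the recovered fragments for controls. For every culture given drug or radiation the factor was higher, at 1.00 to 1.03. No source used here explains this depth offset. It makes FPKM after any treatment lower against control than recovered fragments would. The 3 replicates of each group differed beyond counting error and counted separately. Of the 40 members, 39 had the same coordinates in GENCODE M21. The fit was also run on simulated data as a self-test, whose outcome is not reported here. Alternatives changed the pseudocount, the filter, the scaling, the model and the libraries. All 40 members could be named, with full statistics for the 6 with the smallest adjusted p after radiation, 8 other centromere genes and 3 of each further list. Rcc2, Trip13 and Aurkb were named in addition to these. Members and lists were chosen with earlier results of these data known.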

Additional observations from a re-analysis of the deposited data

How the results depend on the processing

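No called member changed direction under any of 22 alternative settings. The number of members called after radiation was 26 and ranged from 16 (without the second radiation library) to 30 when each library was left out in turn. In the combination against nintedanib it was 18, with 9 after rescaling to a common sum, 4 with the libraries of the 2 groups alone, and 9 to 19 with each library left out. Counts in the other comparisons stayed within 1.5 times. Over all genes the calls ranged from 1145 to 2848 after radiation (2334 in the fit reported) and from 83 to 898 in the combination against nintedanib (722). Rescaling to a common sum moved the share of called genes that were higher from 44.8 to 69.8% after radiation and from 47.2 to 60% with nintedanib, and the median interaction over all genes by -0.12. Members higher after radiation were then 30, with 0 lower. Of the calls of members, 16 of 26 after radiation, 7 of 10 with nintedanib, 14 of 16 in the combination, 13 of 19 against radiation and 4 of 18 against nintedanib held under every setting. Same-numbered replicates did not deviate together (correlations of -0.298 to 0.202, 3 of 18 over 0.1), so the numbers were not taken as pairs. With the replicate number as a block, 10, 23, 16, 19, 14 and 0 members were called in the 6 comparisons. The fit on recovered fragments gave 31 members higher and 0 lower after radiation, and 3 higher and 8 lower with nintedanib. Against control, that fit moved the median change over all genes by 0.056 with nintedanib, 0.054 after radiation and 0.061 in the combination. The shift was 0.0066 for the combination against radiation and 0.0059 against nintedanib. Of all genes called after radiation, 59.6% were then higher. FPKM sums were 301502 to 315358 in controls, 268411 to 304619 with nintedanib and 275834 to 293485 after radiation. The part of these sums and of the depth offset in the shifts between settings was not tested. Depth limits Cenpp and Cenpw most, which had at least 86 and 149 fragments per library.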

Other observations

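A pair of genes next to the checkpoint and the passenger complex, outside the 40 and chosen after their values were seen, fell with nintedanib more than any member. They belong to the list of 29 other centromere and kinetochore genes. In that list 5 were called lower and 0 higher with nintedanib, against 22% and 19.7% of all genes. Rcc2, which helps place the passenger complex at centromeres, fell by 1.35 on the log2 scale with the drug (adjusted p = 9.5e-06 by limma) and by 1.42 in the combination (5.24e-06). Its change after radiation alone was -0.37 (0.0632). Trip13, an ATPase that takes apart the checkpoint's inhibitory complex, fell by 0.82 with the drug (6.12e-05) and by 0.81 in the combination (5.56e-05), and was at -0.02 after radiation (0.899). Aurkb, the passenger complex's kinase, fell by 0.29 with the drug (0.0287). That call was lost in 7 of 22 alternative settings, including without any 1 of the controls or the second or the third library with nintedanib (adjusted p of up to 0.0997).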
